A study of Canis lupus familiaris with 12 samples.

Results

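In all, 10 genes that encode parts of the PAR, Crumbs and Scribble complexes were followed through the RNASeq data of MDCKII cells, an epithelial line from dog kidney. They were chosen by name and not by their values: PARD3, PARD6B and PRKCI of the PAR complex, CRB3 and LIN7C of the Crumbs complex, SCRIB, DLG1, LLGL1 and LLGL2 of the Scribble complex, and the kinase MARK2. All 10 were among the 13672 genes listed in the deposited table. All 10 were also among the 12650 genes with a level above 1 CPM in at least 3 libraries, the genes that were tested. CPM are counts for each 1000000 reads of a library size that was scaled. The cells were untreated and of 4 genotypes, with 3 libraries each: WT, CGN-KO, which lack cingulin, CGNL1-KO, which lack paracingulin, and CGN/CGNL1 double-KO cells. All KO cells were made from MDCKII cells by CRISPR/Cas9 editing, and each KO genotype bears the name of a single line in the labels, so that a genotype and its line cannot be told apart. The question that the comparisons address is whether cells without these tight junction proteins, which bind nonmuscle myosins, differ from WT cells in the mRNAs of the polarity machinery. The replicates are separate libraries, and nothing in the sources used here says that they came from separate cultures, so the p-values measure the spread between libraries, which may be technical.

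The apical and the basolateral membrane of an epithelial cell are kept apart by protein complexes that exclude each other. At the apical side, the scaffold PAR-3 (PARD3), the adaptor PAR-6 (PARD6B) and the atypical protein kinase C iota (PRKCI) act with the Crumbs complex, in which the membrane protein CRB3 is joined through the scaffold PALS1 to PATJ and to LIN7 proteins. At the basolateral side, the scaffolds SCRIB and DLG1 act with the LGL proteins (LLGL1 and LLGL2), which atypical protein kinase C phosphorylates and thereby removes from the apical cortex, and the kinase MARK2 (PAR-1b) phosphorylates PAR-3 and keeps it from the lateral membrane. Tight junctions lie at the border between both domains, and MDCK cells are a standard model of this polarity.

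Reads per library, recovered from the CPM, were 16837532 to 20987950 in WT, 16875183 to 30086076 in CGN-KO, 17374607 to 22493492 in CGNL1-KO and 17511571 to 24240796 in double-KO cells. A single value of the 10 genes rested on 388 to 7492 reads. CGN, the gene targeted in CGN-KO cells, was at 47.0 to 56.5 CPM in CGN-KO and 39.7 to 45.3 CPM in double-KO libraries, against 199 to 233 CPM in WT, and CGNL1 was at 1.76 to 3.02 CPM in CGNL1-KO and 1.11 to 1.76 CPM in double-KO libraries, against 7.74 to 12.3 CPM in WT. CGNL1 was also lower in CGN-KO libraries, at 5.04 to 6.92 CPM (0.657-fold that of WT, adjusted p = 0.0201 by limma), whereas CGN was at 198 to 213 CPM in CGNL1-KO libraries. All 9 epithelial marker genes were listed, and their summed level was 5891 to 6056 CPM in WT, 5596 to 5678 CPM in CGN-KO, 5835 to 5992 CPM in CGNL1-KO and 5617 to 5734 CPM in double-KO libraries. This sum was lower in CGN-KO and in double-KO cells than in WT cells without overlap, and its part in the results below was not tested. The markers did not move as a set. KRT18, a keratin, was at 1562 to 1727 CPM in WT, 1214 to 1336 CPM in CGN-KO and 1407 to 1488 CPM in double-KO libraries. OCLN and CLDN4 were also lower than in WT without overlap in both lines. EPCAM, PAX8 and CDH16 (0.828 to 1.94 CPM in WT, near the limit of the filter) were higher without overlap in both. In all, 6 of 9 markers in CGN-KO and 8 of 9 in double-KO cells did not overlap with WT, beside 35.9% and 45.0% of all genes tested. Of 9 markers of leukocytes, endothelium, fibroblasts and muscle, 1 was listed (CD68, 0.56 to 1.34 CPM). A double-KO library has no replicate number in the table and is called unnumbered. As CPM take no account of transcript length, levels are compared between genotypes for 1 gene and not between genes. In such bulk RNA, fewer cells that express a gene and less mRNA in each cell cannot be told apart.

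The mRNAs of the polarity genes differed little between the genotypes, as did those of most genes tested. None of the 10 genes was changed 2-fold, the threshold of the study, in any comparison (0.356% to 1.63% of all genes were, with 1.31% for CGN-KO, 0.617% for CGNL1-KO and 1.41% for double-KO cells against WT, 0.648% between the single-KO lines, 0.356% and 0.696% between double-KO and CGN-KO or CGNL1-KO cells, and 1.63% for the departure from the sum described last), and the largest difference from WT was a log2 difference of 0.36 (SCRIB in double-KO cells). A count of 0 of 10 is near these shares of all genes. Differences under 2-fold passed the test (adjusted p below 0.05 at any fold, limma with Benjamini-Hochberg adjustment over all 12650 genes) for 4 genes. PARD3 and LIN7C were lower in CGN-KO and in double-KO cells, and SCRIB and MARK2 were higher in double-KO cells. In CGN-KO cells 2 of 10 genes passed, where 19.0% of all genes tested did. In double-KO cells 4 of 10 passed, against 26.3% of all genes. In CGNL1-KO cells limma called 0 of 10, against 10.3% of all genes, with 1 gene at an unadjusted p under 0.05 (CRB3), and edgeR and DESeq2 on the recovered reads called 0 as well. With 10 genes, the counts in CGN-KO and double-KO cells are near the share of all genes and that in CGNL1-KO cells is below it by 1 gene. Their median log2 difference was 0.01 for CGN-KO cells, -0.0057 for CGNL1-KO cells and -0.061 for double-KO cells, beside medians between -0.0039 and -0.00036 over all genes tested. The 3 comparisons share the WT libraries and are not independent of each other.

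Within a genotype, the coefficient of variation of a polarity gene over the 3 libraries was 1.41% to 14.2% (median 4.72%), beside a median of 6.59% over all genes tested and genotypes. The genes of this comparison were not matched by number of reads, so it does not show that the polarity genes vary less. The ratio of the highest to the lowest of the 12 libraries was 1.13 (DLG1) to 1.62 (SCRIB). Its median was 1.33 for the polarity genes, beside 1.38 over all genes tested. With this spread, the 95% interval of a log2 difference from WT reached 0.097 (DLG1) to 0.20 (CRB3) to either side.

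**Figure D1:**
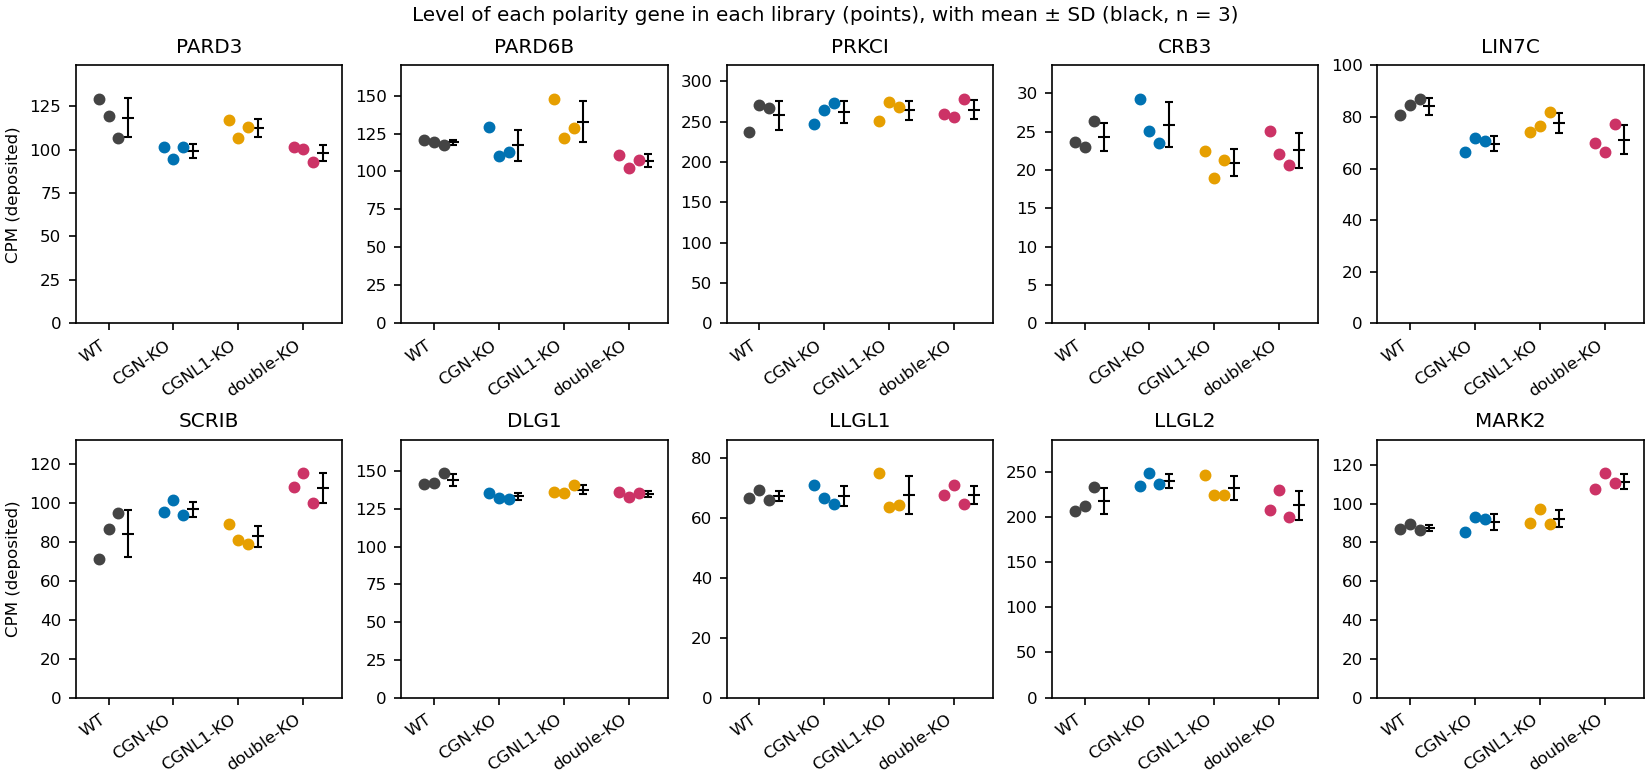
Deposited CPM (vertical axes, starting at 0, with a range of their own in each panel) of the 10 polarity genes in each of the 12 libraries (points, 3 per genotype), with the mean and SD of each genotype (black, n = 3). PARD3 and LIN7C lie lower in the CGN-KO and double-KO libraries than in any WT library, MARK2 lies above all other libraries in double-KO cells, and LLGL1 has nearly the same mean in all 4 genotypes.

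Of the PAR complex, PARD3 changed in CGN-KO and double-KO cells. PARD3 encodes the scaffold that brings PAR-6 and atypical protein kinase C to the tight junction region. In WT replicates 1, 2 and 3 its level was 129, 119 and 107 CPM. In CGN-KO replicates 1 to 3 it was 102, 94.8 and 101 CPM, and in CGNL1-KO replicates 1 to 3 it was 117, 107 and 113 CPM. In double-KO cells it was 101, 100.2 and 93.1 CPM (replicates 2 and 3 and the unnumbered library). Every CGN-KO and double-KO library was thus below every WT library, whereas the CGNL1-KO libraries overlapped with WT. Against WT, the level in CGN-KO cells was 0.842-fold (log2 difference -0.25 ± 0.067 (SE), adjusted p = 0.0152), and the level in double-KO cells was 0.833-fold (log2 difference -0.26 ± 0.067 (SE), adjusted p = 0.00809). In CGNL1-KO cells the difference was -0.073 (95% interval -0.21 to 0.069, adjusted p = 0.582). The call in CGN-KO cells was lost without CGN-KO replicate 2 (-0.22, adjusted p = 0.0678), without WT replicate 1 (-0.18, adjusted p = 0.0732) or without WT replicate 2 (-0.24, adjusted p = 0.0547), and that in double-KO cells was kept without any 1 library (largest adjusted p 0.046).

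PARD6B, which encodes the PAR-6 adaptor that links CDC42 to atypical protein kinase C, had no call against WT, but its levels in the KO lines were spread to both sides of WT. WT replicates 1, 2 and 3 were close to each other at 121, 119.6 and 117 CPM. CGN-KO replicates 1 to 3 lay around these values, at 129, 110.0 and 113 CPM, and CGNL1-KO replicates 1 to 3 lay above them, at 148, 122 and 129 CPM. The double-KO libraries were below WT, at 111, 103 and 108 CPM (replicates 2 and 3 and the unnumbered library). The differences from WT were -0.026 for CGN-KO (adjusted p = 0.84), 0.15 in CGNL1-KO (adjusted p = 0.227) and -0.15 in double-KO cells (adjusted p = 0.133). The order of the means was CGNL1-KO, WT, CGN-KO and double-KO cells, and CGN-KO libraries overlapped with both neighbours in this order. Between the ends of the order, double-KO cells were lower than CGNL1-KO cells (log2 difference -0.30 ± 0.072 (SE), adjusted p = 0.00959), in all 3 libraries. Without double-KO replicate 3 this call was lost (-0.27, adjusted p = 0.0539).

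PRKCI, which encodes the kinase of the PAR complex, passed in no comparison. Its mean was 258 ± 17.9 CPM (SD, n = 3) in WT, 262 ± 13.4 CPM in CGN-KO, 264 ± 11.8 CPM in CGNL1-KO and 265 ± 11.8 CPM in double-KO cells. Of the 12 libraries, WT replicate 1 was the lowest (237 CPM) and the unnumbered double-KO library the highest (278 CPM), and every genotype overlapped with every other. The differences from WT were between 0.02 and 0.038, with adjusted p between 0.696 and 0.855. The largest bound of their 95% intervals was 0.17.

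In the Crumbs complex, LIN7C was lower in the same 2 genotypes as PARD3. LIN7C encodes a small PDZ protein that binds PALS1 and sorts membrane proteins at the basolateral side as well. Its level was 80.6, 84.6 and 87.0 CPM in WT replicates 1, 2 and 3. It was 66.4, 71.8 and 70.8 CPM in CGN-KO replicates 1 to 3 and 74.2, 76.5 and 82.0 CPM in CGNL1-KO replicates 1 to 3. In double-KO cells it was 69.8, 66.6 and 77.3 CPM (replicates 2 and 3 and the unnumbered library). The CGN-KO and double-KO libraries were all below the WT libraries, and CGNL1-KO libraries lay between them and overlapped with WT and with double-KO cells. The level was 0.831-fold that of WT in CGN-KO (log2 difference -0.27 ± 0.063 (SE), adjusted p = 0.00714) and 0.848-fold in double-KO cells (log2 difference -0.24 ± 0.063 (SE), adjusted p = 0.0108). In CGNL1-KO cells the difference was -0.12 (95% interval -0.25 to 0.02, adjusted p = 0.309). Double-KO cells differed from CGNL1-KO cells by -0.12, which did not pass (adjusted p = 0.23). The call in CGN-KO cells was kept under all 15 alternatives, and that in double-KO cells was lost without double-KO replicate 3 (-0.19, adjusted p = 0.0666).

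CRB3 encodes the short transmembrane protein that anchors the Crumbs complex in the apical membrane of epithelia, and it rested on the fewest reads of the 10 genes (388 to 888 per library). Its mean was 24.3 ± 1.78 CPM (SD, n = 3) in WT, 25.9 ± 2.99 CPM in CGN-KO, 21.0 ± 1.79 CPM in CGNL1-KO and 22.6 ± 2.27 CPM in double-KO cells. The 3 CGNL1-KO values, 22.5, 19.0 and 21.3 CPM in replicates 1 to 3, were all below the lowest WT value of 23.0 CPM, whereas the other lines overlapped with WT. The difference in CGNL1-KO cells was -0.21 (95% interval -0.41 to -0.001) and had an adjusted p of 0.219 by limma. In CGN-KO and double-KO cells the differences were 0.087 (adjusted p = 0.58) and -0.10 (adjusted p = 0.466).

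In the Scribble complex, SCRIB was higher in double-KO cells. SCRIB encodes the large scaffold of the basolateral cortex. In WT replicates 1, 2 and 3 its level was 71.1, 86.6 and 94.7 CPM, the widest relative spread of any of the 10 genes in a genotype (14.2%). In CGN-KO replicates 1 to 3 it was 95.2, 101 and 93.8 CPM, and in CGNL1-KO replicates 1 to 3 it was 88.9, 80.9 and 78.5 CPM. In double-KO cells it was 108, 115 and 99.9 CPM (replicates 2 and 3 and the unnumbered library). The double-KO libraries were above every WT and every CGNL1-KO library, and those of CGN-KO cells overlapped with WT and with double-KO cells. The level in double-KO cells was 1.28-fold that of WT (log2 difference 0.36 ± 0.086 (SE), adjusted p = 0.00569), and this call was kept under all 15 alternatives. In CGN-KO cells the difference was 0.21 (95% interval 0.025 to 0.39, adjusted p = 0.105), which passed without WT replicate 3 (0.30, adjusted p = 0.0297). In CGNL1-KO cells it was -0.015 (adjusted p = 0.945). Double-KO cells were also higher than CGNL1-KO cells (log2 difference 0.37 ± 0.086 (SE), adjusted p = 0.00808), a call that was lost without double-KO replicate 3 (0.32, adjusted p = 0.0519). Against CGN-KO cells the difference was 0.15 (adjusted p = 0.33).

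DLG1, the membrane-associated guanylate kinase of the complex, had the smallest ratio between its highest and lowest library. It was at 141, 142 and 149 CPM in WT replicates 1, 2 and 3. The KO libraries were at 132 to 136 CPM in CGN-KO, 136 to 141 CPM in CGNL1-KO and 133 to 137 CPM in double-KO cells. All 9 KO libraries were below the lowest WT library, but no comparison passed. The difference from WT was -0.11 for CGN-KO (adjusted p = 0.102), -0.063 for CGNL1-KO (adjusted p = 0.463) and -0.091 for double-KO cells (adjusted p = 0.158). Groups without overlap were frequent in these data. Among all genes tested, 35.9% did not overlap with WT for CGN-KO, 24.4% for CGNL1-KO and 45.0% for double-KO cells, beside 4, 4 and 6 of the 10 polarity genes.

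LLGL1 and LLGL2 encode the LGL proteins, the substrates of atypical protein kinase C in this system. The mean level of LLGL1 was 67.3 ± 1.77 CPM (SD, n = 3) in WT, 67.3 ± 3.3 CPM in CGN-KO, 67.6 ± 6.28 CPM in CGNL1-KO and 67.6 ± 3.14 CPM in double-KO cells. Its differences from WT were -5.8e-05, 0.0038 and 0.0059, the smallest set of the 10 genes, and their 95% intervals lay within -0.14 and 0.15. LLGL2 varied more. It was at 207, 212 and 234 CPM in WT, 235, 249 and 236 CPM in CGN-KO and 247, 224 and 224 CPM in CGNL1-KO replicates 1, 2 and 3, and at 200.0 to 231 CPM in double-KO cells. The CGN-KO libraries of LLGL2 were above all WT and double-KO libraries, but the difference from WT was 0.14 (95% interval 0.0055 to 0.28, adjusted p = 0.138), and that of double-KO from CGN-KO cells was -0.17 (adjusted p = 0.114). In CGNL1-KO and double-KO cells the differences from WT were 0.092 (adjusted p = 0.444) and -0.032 (adjusted p = 0.757).

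MARK2, the PAR-1 kinase, had the smallest adjusted p of the 10 genes. It was at 87.0, 89.4 and 86.4 CPM in WT replicates 1, 2 and 3. CGN-KO replicates 1 to 3 were at 85.5, 93.1 and 92.2 CPM and CGNL1-KO replicates 1 to 3 at 89.7, 97.2 and 89.5 CPM. The double-KO libraries were at 108, 116 and 111 CPM (replicates 2 and 3 and the unnumbered library), above each of the 9 other libraries. The level in double-KO cells was 1.27-fold that of WT (log2 difference 0.34 ± 0.054 (SE), adjusted p = 0.000226), and it was also higher than in CGN-KO (log2 difference 0.30 ± 0.054 (SE), adjusted p = 0.00269) and CGNL1-KO cells (log2 difference 0.27 ± 0.054 (SE), adjusted p = 0.00318). In the single-KO lines the differences from WT were 0.042 (adjusted p = 0.638) and 0.071 (adjusted p = 0.492). These calls of MARK2 were kept when any 1 library was left out, but the chromosome of MARK2 was shifted along with it in double-KO cells, as described next.

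**Figure D2:**
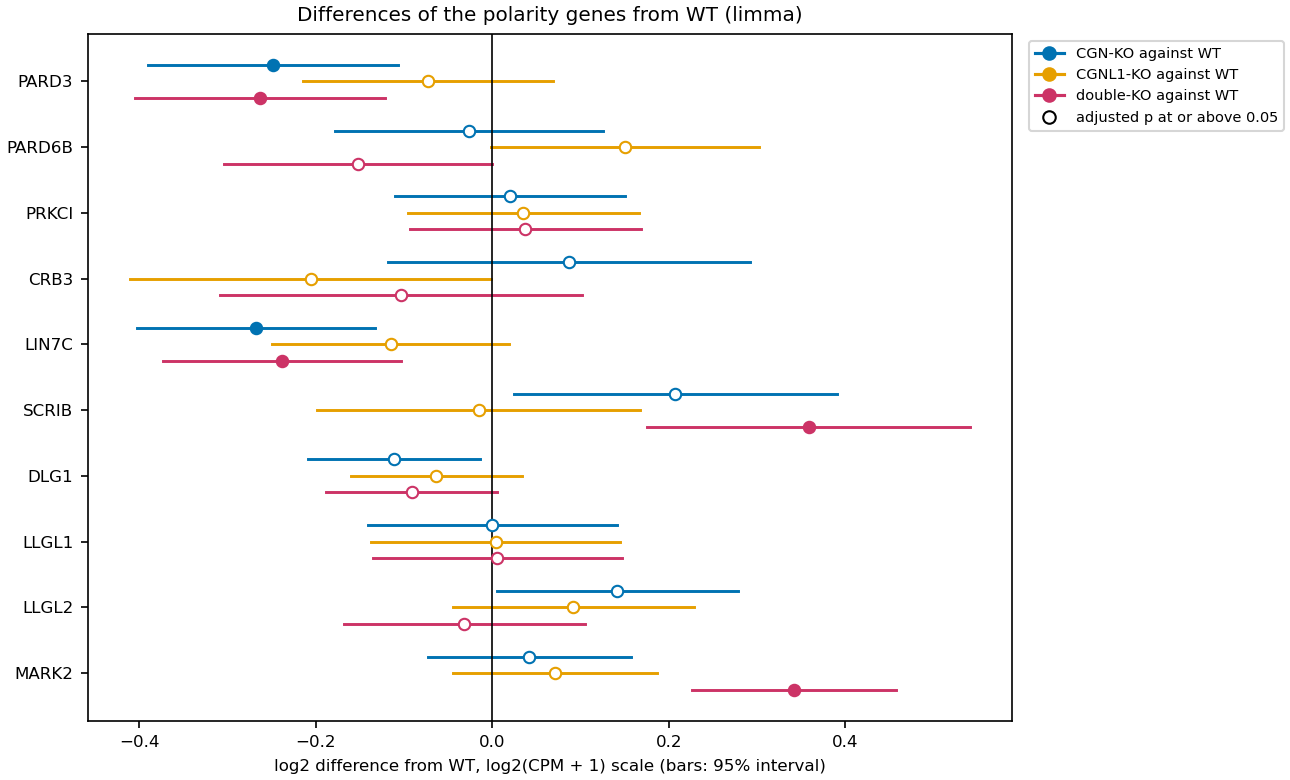
Log2 difference from WT (horizontal axis, log2(CPM + 1) scale) of the 10 polarity genes in CGN-KO, CGNL1-KO and double-KO cells, with 95% intervals from limma (bars, 3 libraries per genotype). Filled points have an adjusted p below 0.05, which are PARD3 and LIN7C in CGN-KO and double-KO cells and SCRIB and MARK2 in double-KO cells, and all points lie between -0.27 and 0.36.

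The median over some chromosomes differed between the KO lines and WT, so each polarity gene was set beside the other tested genes on its chromosome and beside its nearest tested genes, 12 to each side (24 in all, and 16 to 23 for PARD3, PRKCI, LIN7C and DLG1, which lie near a chromosome end). Gene order was taken from the RefSeq genes of the dog assembly UU_Cfam_GSD_1.0, which is not the build of the counts. For MARK2 in double-KO cells, the gene itself differed by 0.34, the median of the 397 other genes on its chromosome was 0.29 (90.4% of them higher than in WT), and the median of its 24 neighbours was 0.38, with all 24 of them higher and 19 past the test. In the 3 double-KO libraries the median of the chromosome was 0.29 to 0.33 above WT, while MARK2 was 0.29 to 0.40 above. When the median deviation of the chromosome was subtracted from each library before the fit, MARK2 differed from WT by 0.039 (adjusted p = 0.628), from CGN-KO by 0.087 (adjusted p = 0.367) and from CGNL1-KO cells by 0.02 (adjusted p = 0.853). MARK2 thus passed in none of these comparisons once its chromosome was taken into account.

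PARD6B lies on a chromosome whose median was above WT in all 3 KO lines. PARD6B itself was below its chromosome in each line, by most in CGN-KO and double-KO cells. The median over the 316 other genes of that chromosome was 0.19 for CGN-KO, 0.20 for CGNL1-KO and 0.14 for double-KO cells, and the median over the 24 neighbours of PARD6B was 0.25, 0.32 and 0.14. Of these 24 neighbours, 22, 21 and 18 were higher than in WT. The gene was at -0.026, 0.15 and -0.15. In CGN-KO and double-KO cells each of its 3 values was below the median of the chromosome in any library of that line. With the chromosome median subtracted, PARD6B differed from WT by -0.22 in CGN-KO (adjusted p = 0.0269) and -0.31 in double-KO cells (adjusted p = 0.00248). In CGNL1-KO cells it differed by -0.054 (adjusted p = 0.699). These differences are relative to the chromosome, and the level of PARD6B itself had no call against WT, as given above.

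PARD3, LIN7C and SCRIB lie on chromosomes with medians near 0. The chromosome medians beside PARD3 were -0.0086 in CGN-KO and -0.017 in double-KO cells, those beside LIN7C were -0.017 and -0.055, and that beside SCRIB was -0.0047 in double-KO cells. The 17 neighbours of PARD3 had a median of -0.10 in CGN-KO cells, with 6 of them higher than in WT and 5 past the test, and of -0.032 in double-KO cells, with 8 higher and 6 past the test. The 16 neighbours of LIN7C had medians of -0.049 and 0.029 in these lines. The 24 neighbours of SCRIB had a median of 0.14 in double-KO cells, with 20 of them higher than in WT and 5 past the test, and a median of 0.12 in CGN-KO cells, with 20 higher and 4 past the test. With the chromosome median subtracted, PARD3 differed by -0.24 in CGN-KO (adjusted p = 0.0185) and -0.25 in double-KO cells (adjusted p = 0.011). LIN7C differed by -0.25 (adjusted p = 0.0094) and -0.19 (adjusted p = 0.0392) in these lines. SCRIB differed by 0.37 in double-KO cells (adjusted p = 0.00362). In all, 4 of 10 genes passed in double-KO cells under this subtraction as well, with PARD6B in place of MARK2, beside 22.6% of all genes.

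**Figure D3:**
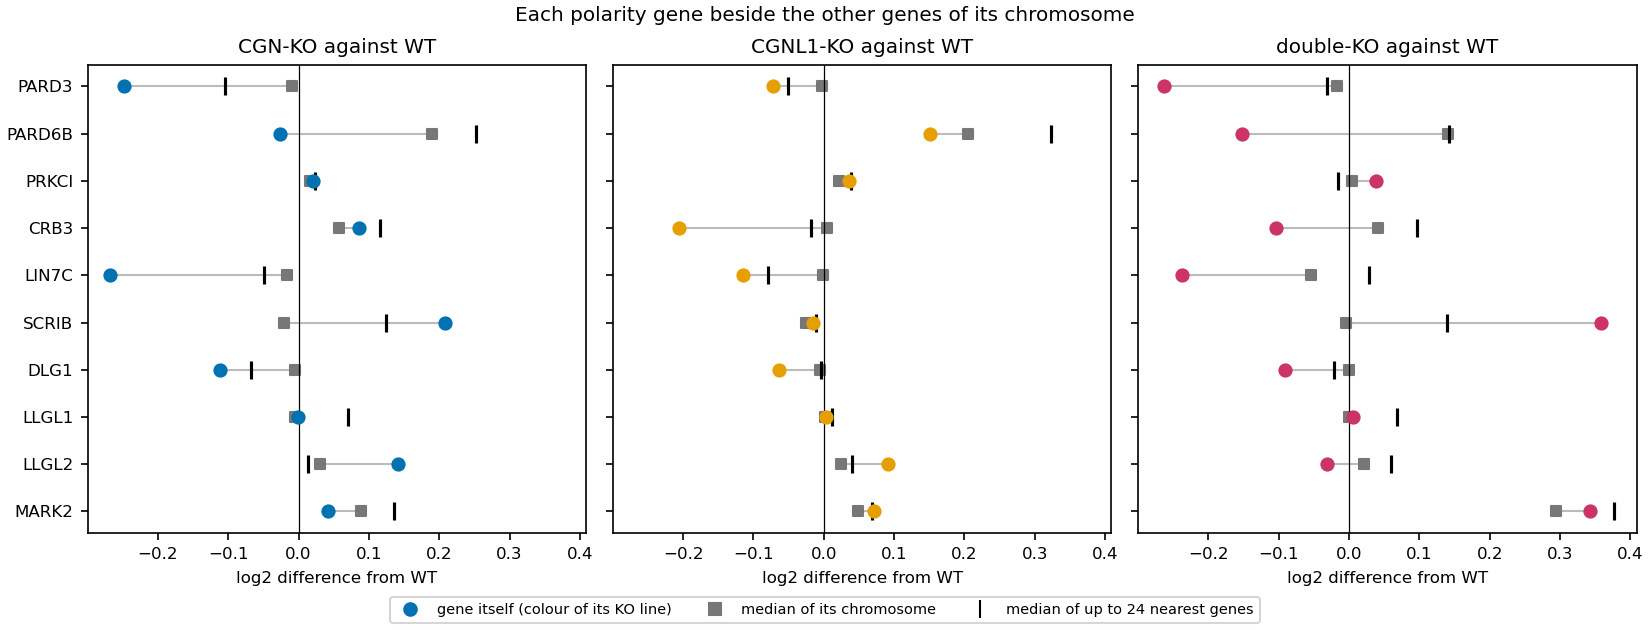
Log2 difference from WT (horizontal axes) of each polarity gene (coloured points), of the median of the other tested genes on its chromosome (grey squares) and of the median of its up to 24 nearest tested genes (black bars), for the 3 KO lines. In double-KO cells MARK2 sits at 0.34 beside a chromosome median of 0.29, and PARD6B sits below the median of its chromosome in all 3 lines.

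The 2 single-KO lines were also compared with each other, which tests directly whether the lack of 1 or the other protein went with different levels. Without a block, limma called 0 of 10 genes, where 5.19% of all genes passed, although 5 genes had an unadjusted p under 0.05, and edgeR and DESeq2 called 0 as well. A fit of these 2 lines alone without a block called 0 of 10 too. CGN-KO and CGNL1-KO libraries of the same number deviated together from their group means. The comparison was therefore repeated on the libraries of these 2 lines alone, with the replicate number as a block. With this block, which was chosen from the same data, 5 of 10 genes passed, against 15.5% of all genes. CRB3 was higher in CGN-KO than in CGNL1-KO cells, by 0.36, 0.38 and 0.13 in numbers 1, 2 and 3 (log2 difference 0.29 ± 0.071 (SE), adjusted p = 0.00587). SCRIB was higher as well, by 0.097, 0.32 and 0.25 (0.22 ± 0.048, adjusted p = 0.00205). PARD3 (-0.18 ± 0.043, adjusted p = 0.00616), PARD6B (-0.18 ± 0.042, adjusted p = 0.00497) and LIN7C (-0.15 ± 0.047, adjusted p = 0.0291) were lower in CGN-KO cells, each in 3 of 3 numbers. Without the block these 5 adjusted p were 0.102 for CRB3, 0.18 for SCRIB, 0.169 for PARD3, 0.202 for PARD6B and 0.216 for LIN7C, and CRB3 passed without CGNL1-KO replicate 1 (0.34, adjusted p = 0.0475). PRKCI, LLGL1, LLGL2 and MARK2 differed in both directions among the numbers, and DLG1 was lower in 3 of 3 numbers by 0.011 to 0.099 (adjusted p = 0.498).

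**Figure D4:**
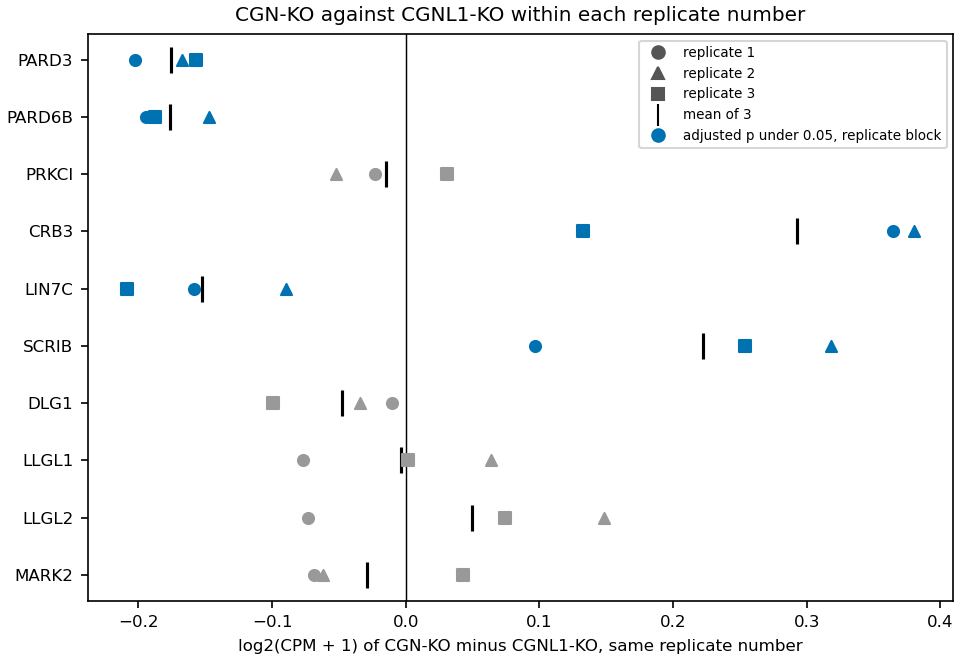
Difference in log2(CPM + 1) between the CGN-KO and the CGNL1-KO library of the same replicate number (horizontal axis), for the 10 polarity genes, with the mean of the 3 numbers as a black bar. The genes in blue (PARD3, PARD6B, CRB3, LIN7C and SCRIB) had an adjusted p below 0.05 with the replicate number as a block. For each of them the 3 differences have the same sign, as they do for DLG1, which did not pass.

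Double-KO cells were compared with each single-KO line and with the sum of both differences. MARK2 was the 1 gene of 10 that passed against CGN-KO cells (8.84% of all genes), and MARK2, SCRIB and PARD6B passed against CGNL1-KO cells (14.4% of all genes). PARD3 stood at -0.19 against CGNL1-KO cells (adjusted p = 0.0696) and passed without CGNL1-KO replicate 2 (-0.23, adjusted p = 0.0446). Between double-KO and CGN-KO cells the difference was -0.015 for PARD3 (95% interval -0.16 to 0.13) and 0.029 for LIN7C (95% interval -0.11 to 0.16). The departure of the double-KO difference from the sum of both single-KO differences was called by limma for 0 of 10 genes (10.3% of all genes), with 3 genes at an unadjusted p under 0.05 and 0 called by edgeR or DESeq2. These 3 were PARD6B (-0.28 ± 0.1, adjusted p = 0.0994), LLGL2 (-0.27 ± 0.091, adjusted p = 0.076) and MARK2 (0.23 ± 0.077, adjusted p = 0.0709). PARD6B and MARK2 passed without CGNL1-KO replicate 2 (-0.33, adjusted p = 0.0369, and 0.27, adjusted p = 0.0344), and LLGL2 passed without WT replicate 3 (-0.32, adjusted p = 0.0426) or without double-KO replicate 3 (-0.32, adjusted p = 0.0407). With the chromosome median subtracted, the departure was -0.039 for PARD6B (adjusted p = 0.843), 0.068 for MARK2 (adjusted p = 0.625) and -0.21 for LLGL2 (adjusted p = 0.157).

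Across all 4 genotypes, limma's F test found 5 of the 10 genes to differ, PARD3, PARD6B, LIN7C, SCRIB and MARK2, beside 29.9% of all genes. The call of PARD6B was lost with scaling by library totals (adjusted p = 0.0545) and without CGNL1-KO replicate 1 (0.0549), CGNL1-KO replicate 3 (0.0506), double-KO replicate 3 (0.0933) or the unnumbered double-KO library (0.067). That of LIN7C was lost without WT replicate 3 (adjusted p = 0.0506), and that of MARK2 with the chromosome median subtracted (adjusted p = 0.51). For each of the 5, the genes with the most similar course over the 12 libraries were found by Pearson's r of log2(CPM + 1). These r values describe 12 libraries that fall into 4 genotypes and share their depth and handling, and they were picked as the highest among all other genes tested. The genes nearest to PARD3 were DOCK9 (r = 0.96) and INPP5B (r = 0.96), and those nearest to PARD6B were SQOR (r = 0.97) and B2M (r = 0.97). Among the genes most similar to SCRIB were MIDN (r = 0.97) and ZBTB7B (r = 0.97), to LIN7C STAM2 (r = 0.94) and to MARK2 AIF1L (r = 0.98).

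Other genes of the polarity machinery were taken from lists of paralogues, partners and regulators, 50 genes in all, of which 44 were listed and 43 tested. PARD6G, CRB1, CRB2, LIN7A, MARK1 and AMOT were not in the table used here. In CGN-KO cells 10 of the 43 passed (23.3%), 6 of them higher and 4 lower, where 11.2% of all genes were higher and 7.87% lower. In CGNL1-KO cells 3 passed (6.98%), 1 higher and 2 lower, where 6.81% of all genes were higher and 3.49% lower. In double-KO cells 8 passed (18.6%), 4 in each direction, where 14.8% of all genes were higher and 11.5% lower. A single one, DLG4 in double-KO cells, was changed at least 2-fold.

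Among paralogues and GTPases of the PAR complex, 7 of 8 genes were tested, and their median log2 differences were -0.095, -0.042 and -0.013 in CGN-KO, CGNL1-KO and double-KO cells. RAC1, a GTPase whose exchange factor TIAM1 binds PAR-3, was lower in all 3 lines: -0.27 ± 0.051 (SE), adjusted p = 0.00129 for CGN-KO, -0.17 ± 0.051 (SE), adjusted p = 0.0397 for CGNL1-KO and -0.32 ± 0.051 (SE), adjusted p = 0.000215 for double-KO cells. Its level was 494 to 540.5 CPM in WT and 405 to 427 CPM in double-KO libraries. TIAM1 was higher in CGN-KO cells (0.34 ± 0.084 (SE), adjusted p = 0.0093), and its difference in double-KO cells was 0.21 ± 0.084 (SE), adjusted p = 0.0803. CDC42, which binds PAR-6, was lower in double-KO cells (-0.17 ± 0.051 (SE), adjusted p = 0.0213). PARD6A, the paralogue of PARD6B, was scarce and lower in CGN-KO cells (4.6 to 5.08 CPM in WT and 3.21 to 3.79 CPM in CGN-KO libraries, -0.39 ± 0.11 (SE), adjusted p = 0.018).

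Of the partners of the Crumbs complex, 6 of 9 were tested, with medians of 0.046, -0.058 and -0.14. PALS1, the scaffold between CRB3 and LIN7 proteins, is listed as MPP5 and was lower in double-KO cells (-0.21 ± 0.065 (SE), adjusted p = 0.0273), at 36.5 to 40.2 CPM in WT and 32.4 to 33.6 CPM in double-KO libraries. PALS2, listed as MPP6, was lower in CGN-KO cells (-0.52 ± 0.1 (SE), adjusted p = 0.00173), and its difference in double-KO cells was -0.26 ± 0.1 (SE), adjusted p = 0.0701. Of 11 paralogues and partners of the Scribble complex, 10 were tested, with medians of 0.026, 0.025 and 0.039. The 1 gene that changed was DLG4, a paralogue of DLG1 best known from synapses, which was near the limit of the filter, at 1.48 to 2 CPM in WT and 4.22 to 4.7 CPM in double-KO libraries (1.02 ± 0.13 (SE), adjusted p = 2.35e-05). It was higher in CGN-KO cells too (0.47 ± 0.13 (SE), adjusted p = 0.0168).

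Of the other PAR-1 and PAR-4 kinases and their cofactors, 7 of 8 were tested, with medians of 0.026, 0.0049 and 0.052. MARK4 was higher in CGN-KO (0.34 ± 0.082 (SE), adjusted p = 0.00809) and double-KO cells (0.50 ± 0.082 (SE), adjusted p = 0.000267), at 12.5 to 13.5 CPM in WT and 18.5 to 19.1 CPM in double-KO libraries. The chromosome that carries MARK4 had a median of 0.20 in double-KO and 0.00034 in CGN-KO cells. MARK3 was lower in CGN-KO cells (-0.19 ± 0.054 (SE), adjusted p = 0.019). CAB39L, a cofactor of the PAR-4 kinase LKB1, was higher in CGN-KO cells (0.35 ± 0.078 (SE), adjusted p = 0.00418), and its paralogue CAB39 was lower in double-KO cells (-0.20 ± 0.06 (SE), adjusted p = 0.0224).

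All 7 genes of the PAR-5 family, whose proteins bind phosphorylated PAR-3, were tested, with medians of -0.031, 0.07 and 0.043. YWHAQ was higher in CGN-KO (0.39 ± 0.049 (SE), adjusted p = 2.94e-05) and double-KO cells (0.39 ± 0.049 (SE), adjusted p = 2.58e-05), at 468 to 485 CPM in WT and 617 to 634 CPM in double-KO libraries. YWHAZ was lower in CGNL1-KO cells (-0.26 ± 0.078 (SE), adjusted p = 0.0404). Of the angiomotins and the merlin and KIBRA genes at the apical junction, 6 of 7 were tested, with medians of 0.16, 0.14 and 0.14. WWC1, which encodes KIBRA, a protein that binds atypical protein kinase C and merlin, was higher in CGN-KO (0.26 ± 0.048 (SE), adjusted p = 0.00131) and double-KO cells (0.34 ± 0.048 (SE), adjusted p = 8.61e-05), and AMOTL1 was higher in CGNL1-KO cells (0.21 ± 0.059 (SE), adjusted p = 0.0356).

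**Figure D5:**
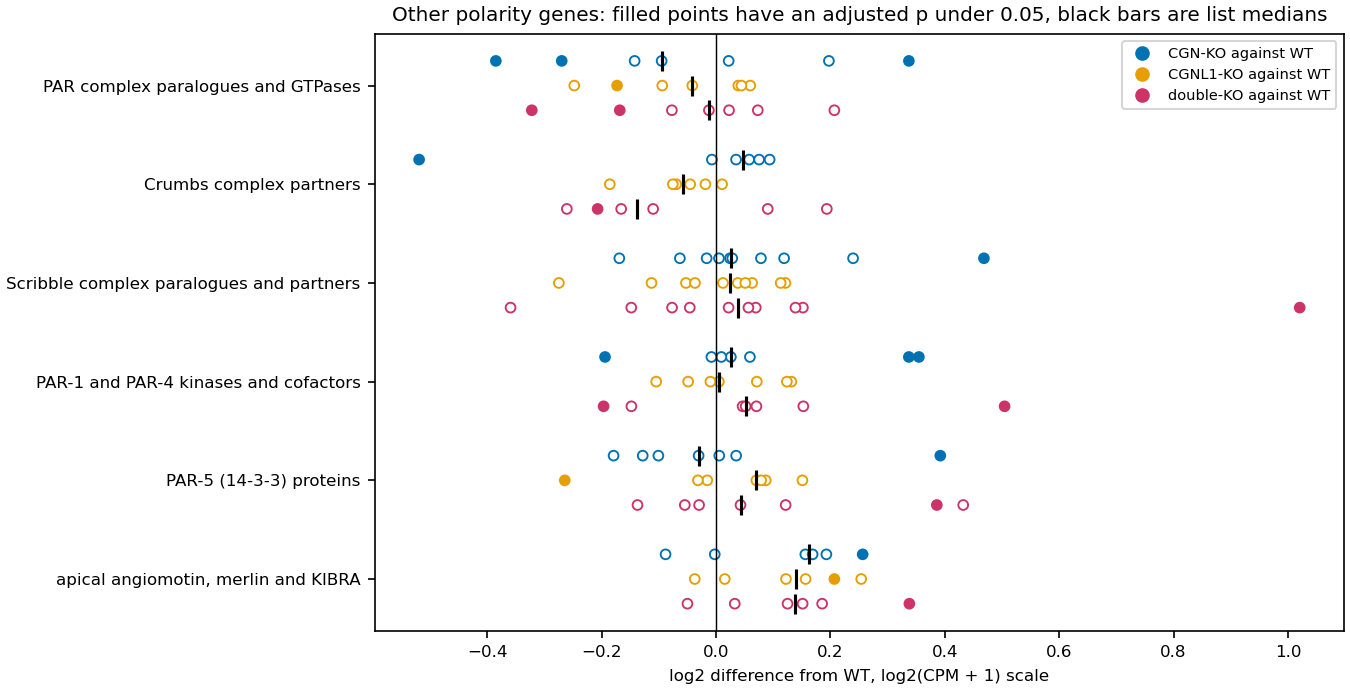
Log2 difference from WT (horizontal axis, log2(CPM + 1) scale) of 43 other polarity genes in 6 lists, 1 point per gene and KO line, with the list median as a black bar. Filled points have an adjusted p below 0.05. Most points lie near 0, and the point farthest to the right, at 1.02, is DLG4 in double-KO cells.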

How the data were processed

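Gene expression was measured by the authors by RNASeq in 12 libraries of MDCKII cells. Per the labels and the study's methods, reads were aligned with STAR (version 2.7.0f) to CanFam3.1 and counted per gene with HTSeq (version 0.9.1), and expression was scaled to library size in edgeR. The deposited CPM match edgeR's TMM scaling and are treated as a signal, since their sums differ from 1000000. Every value was a whole number of reads (100% within 0.01 of a read), so reads were recovered, and edgeR's quasi-likelihood test on them called 2429 genes for CGN-KO, 1264 for CGNL1-KO and 3327 for double-KO cells. The annotation release and the strand setting are not given in the sources used here, and reads shared with overlapping genes or paralogues cannot be told apart.

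Tests used the genes above 1 CPM in 3 or more libraries, with limma 3.58.1 (R 4.3.3, eBayes with a trend) on log2(CPM + 1), which understates changes of scarce genes, in 1 fit of the 4 genotypes without a block. Adjusted p are from limma unless another tool is named, and all tests are two-sided. Alternatives were other pseudocounts (0.5 and 5), no filter, scaling by library totals, edgeR 4.0.16 and DESeq2 1.42.0 on recovered reads, 2 groups per fit, each library left out, the replicate block, and subtraction of chromosome medians. For a comparison of 2 groups, the fit with the replicate block also held these 2 groups alone. A CGN-KO and a CGNL1-KO library of 1 number deviated alike from the means of their lines in 3 of 3 pairs (r = 0.179 to 0.632, across genes). The number was therefore used as a block between these lines. Pairs of different numbers were not examined, so whether the numbers pair the libraries was not tested. The block was chosen from these same data, as no source used here says what a number marks. Genes were placed by symbol, which worked for 11755 of the 12650 genes tested (92.9%) and for all 10 polarity genes. Named genes are the 10 members, up to 4 genes per list that passed in any KO line, by size of change, and for each gene that differed among genotypes the 2 most similar in course, of which some are not reported here. The genes, lists and alternatives were chosen with earlier results of these data known. No sequences or transcript lengths were used here. Plots were drawn with matplotlib 3.10.9.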

Additional observations from a re-analysis of the deposited data

Results flagged for a closer look

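The direct comparison of CGN-KO with CGNL1-KO cells gave a difference between groups for 5 polarity genes once the replicate number was a block. With CGN-KO minus CGNL1-KO on the log2 scale, the differences were -0.18 for PARD3, -0.18 for PARD6B, 0.29 for CRB3, -0.15 for LIN7C and 0.22 for SCRIB. Each had the same sign in 3 of 3 numbers, as had DLG1, which did not pass. The test with the block rests on these same differences, so their shared sign is no separate support. For the 5 genes, the adjusted p from limma were 0.00205 (SCRIB) to 0.0291 (LIN7C) with the block, in a fit of these lines alone. They were 0.102 (CRB3) to 0.216 (LIN7C) without it, in the fit of all genotypes. The block itself was chosen from these data. As each genotype is 1 line, effects of the genotype and of the line cannot be told apart here.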

How the results depend on the processing

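Of the 10 called differences between 2 genotypes, 140 of 150 alternatives kept the direction and the call, and 10 kept the direction with an adjusted p at or above 0.05. Over all members, 1100 alternatives gave 16 further calls and 10 lost ones, and 85 had the other sign, none of them called. In counts of genes past the test, the replicate block moved CGN-KO against CGNL1-KO from 0 to 5, and subtraction of chromosome medians moved double-KO against CGN-KO from 1 to 0 through the loss of MARK2. With 1 library left out, the counts were 1 to 3 for CGN-KO against WT, 0 for CGNL1-KO, 3 to 4 for double-KO against WT, 0 to 1 for CGN-KO against CGNL1-KO, 1 to 4 for double-KO against CGNL1-KO, 0 to 2 for the departure from the sum and 4 to 5 for the F test. The libraries whose loss moved a count over 1.5 times were CGN-KO replicate 2, WT replicates 1 and 2 (CGN-KO against WT, 1 gene each), CGNL1-KO replicate 1 (CGN-KO against CGNL1-KO, 1 gene), double-KO replicate 3 (double-KO against CGNL1-KO, 1 gene) and, for the departure from the sum, CGNL1-KO replicate 2 (2 genes), WT replicate 3 (1 gene) and double-KO replicate 3 (1 gene). The cause was not tested. Libraries of the same number did not deviate alike in every other pair of genotypes (correlations -0.082 to 0.37 between WT and single-KO libraries and -0.24 to 0.086 over pairs with double-KO libraries). With the replicate block in these comparisons SCRIB passed in CGN-KO against WT (0.21, adjusted p = 0.024), and PARD3 in double-KO against WT, fitted without the unnumbered library, did not (-0.16, adjusted p = 0.0532). The block changed no other call. PARD6B in double-KO against WT passed in a fit of these 2 genotypes alone (-0.15, adjusted p = 0.032). Pseudocounts, the filter, edgeR and DESeq2 changed no call. Scaling by library totals changed none between 2 genotypes or of the departure from the sum, but ended that of PARD6B in the F test (adjusted p = 0.0545). CRB3 had the fewest reads, 388 to 888 per library.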

Other observations

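The epithelial marker genes, which served to check the cell type, moved in both directions. Of the 9 genes, CGN-KO cells had 3 past the test that were higher and 2 that were lower, CGNL1-KO cells had 2 and 1, and double-KO cells had 2 and 2, beside 19.0%, 10.3% and 26.3% of all genes. EPCAM, an epithelial adhesion protein, was higher in all 3 KO lines (0.40 ± 0.054 (SE), adjusted p = 6.83e-05 in CGN-KO, 0.26 ± 0.054 (SE), adjusted p = 0.00483 in CGNL1-KO and 0.33 ± 0.054 (SE), adjusted p = 0.000265 in double-KO cells). CLDN4, a tight junction claudin, was lower in CGNL1-KO (-0.41 ± 0.061 (SE), adjusted p = 0.000334) and double-KO cells (-0.44 ± 0.061 (SE), adjusted p = 6.53e-05). OCLN, which encodes occludin, was lower in CGN-KO (-0.20 ± 0.051 (SE), adjusted p = 0.0101) and double-KO cells (-0.27 ± 0.051 (SE), adjusted p = 0.00085). KRT18, a keratin, was lower in CGN-KO cells (-0.35 ± 0.072 (SE), adjusted p = 0.00284), and its differences were -0.17 (adjusted p = 0.166) in CGNL1-KO and -0.17 (adjusted p = 0.0998) in double-KO cells. PAX8, a transcription factor of kidney epithelium, was higher in CGN-KO (0.22 ± 0.062 (SE), adjusted p = 0.0208) and double-KO cells (0.30 ± 0.062 (SE), adjusted p = 0.00184). CDH16, the kidney cadherin, was scarce and higher in CGN-KO cells (0.83 ± 0.24 (SE), adjusted p = 0.0245), and CDH1, which encodes E-cadherin, was higher in CGNL1-KO cells (0.25 ± 0.065 (SE), adjusted p = 0.0218). KRT8, a keratin, and TJP1, the scaffold ZO-1, passed in no KO line (smallest adjusted p 0.219 and 0.238).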
